A study of Mus musculus with 4 samples.

Results

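Wild-type mouse liver was compared with wild-type mouse duodenum, gene by gene, to describe what tells the organs apart in metabolism, transport, secretion and transcriptional control. The comparison was chosen by the labels alone and uses 2 of the 4 arrays of the series, 1 per tissue. Each array was hybridised with total RNA pooled from 3 female mice aged 5 to 6 weeks that had free access to standard chow. The other 2 arrays hold liver and duodenum of mice carrying a transgene for a constitutively activated aryl hydrocarbon receptor (CA-AhR), a ligand-activated transcription factor that in this form acts without ligand, again as pools of 3 females of the same age and diet. The sources used here do not name the strain, the time of day or the promoter that drives the transgene. All arrays were Affymetrix Mouse Genome 430 2.0, on which a gene is read by 1 or more probe sets of short oligonucleotides. Of 18194 genes with a probe set, 14919 gave a signal above a floor of 129.3 on at least 1 wild-type array and entered the comparison.

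The liver parenchyma is made of hepatocytes, which secrete most plasma proteins, dispose of amino acid nitrogen, make glucose, bile acids and sterols, and modify drugs. The duodenum is the first stretch of the small intestine. Its villi are lined by enterocytes, which digest sugars and peptides at an apical brush border, take up the products, and pack dietary fat into chylomicrons, and by mucus-secreting goblet cells, while crypts hold dividing cells and antimicrobial Paneth cells. Both epithelia come from the embryonic gut endoderm and share several lineage transcription factors.

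All values below are MAS5 signals on a linear scale or their log2 ratio, liver over duodenum. Signals under the floor were raised to it before the ratio was taken, so a fold with 1 signal under the floor is a lower limit and is written "at least". List medians count such limits at their stated value. With 1 pool per tissue there is no replicate spread and no test, and a gene was called when the ratio reached 2-fold. Signals of different genes were not compared with each other, since probe sets differ in brightness, except in the summed signals of marker lists. Such sums are weighted towards the brightest probe sets, and for some lists the largest members are named. The function and cell type lists hold 835 gene symbols, of which 746 had a probe set and 710 a ratio. In whole tissue, fewer cells of a type and less RNA per cell cannot be told apart. The median signal was 176.5 in liver and 229.3 in duodenum, and 12768 and 13688 genes were above the floor. For Gapdh, the signal near the 3' end over that near the 5' end, which rises as RNA is degraded, was 0.608 in liver and 1.03 in duodenum, and for Actb 1.51 and 1.77.

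Liver was higher for 2035 genes at 2-fold (13.6% of genes tested) and duodenum for 2762 (18.5%). At 8-fold the counts were 430 (2.88%) for liver and 363 (2.43%) for duodenum. The remaining 10122 genes (67.8%) lay within 2-fold. The split of the 2-fold calls depended on the scale: liver made up 42.4% of them on the deposited scale, 49.8% after quantile normalization (2338 and 2355), 53.9% after loess (2475 and 2119) and 63.2% (3003 and 1748) on a scale set by 18 spiked control probe sets. The median over all genes was -0.18 on the log2 scale, and these scalings moved it by 0.15, 0.20 and 0.35. A member or list is therefore read against this median, and differences under about 2-fold are given as values only. Across the 11537 genes above the floor in both tissues, the Pearson correlation of the log2 signals was 0.67; genes are not independent replicates.

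**Figure D1:**
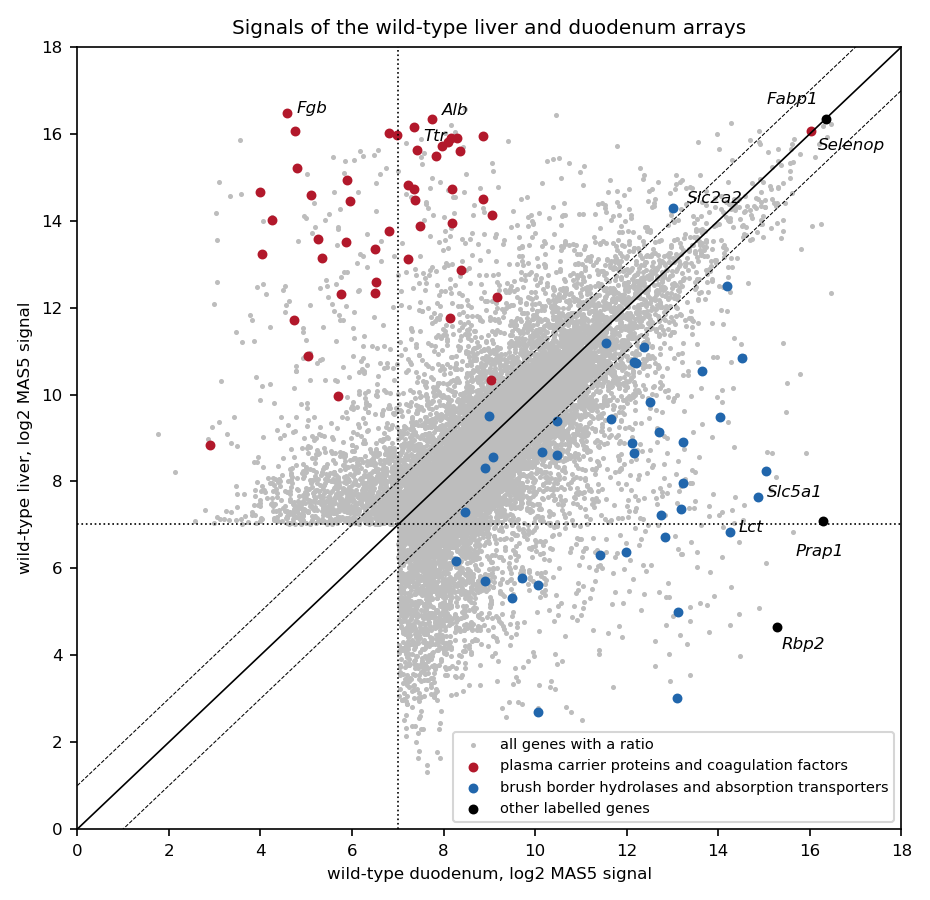
Log2 MAS5 signal of each gene with a ratio in wild-type duodenum (horizontal axis) and wild-type liver (vertical axis); each point is 1 gene on 1 array per tissue. Dotted lines mark the floor of 129.3, the solid line equal signals and the dashed lines 2-fold. Plasma carrier proteins and coagulation factors (red) lie above the diagonal apart from Selenop, which lies on it, brush border hydrolases and absorption transporters (blue) mostly lie below it, and Fabp1 lies on it.

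The labels of both arrays were checked against cell type markers. The fibrinogen beta chain gene Fgb gave 90936 in liver and 23.9 in duodenum, at least 703-fold. The lactase gene Lct gave 115 in liver and 19549 in duodenum, at least 151-fold. All 12 hepatocyte markers were at least 2-fold higher in liver, from 3.11-fold for Cps1 to at least 703-fold for Fgb, and all 11 enterocyte markers with a probe set were at least 2-fold higher in duodenum, from 3.63-fold for the meprin subunit Mep1a to at least 151-fold for Lct and at least 151-fold for the microvillus actin bundler Vil1. Fga, Fgg and Tat gave 112, 27 and 69.7 in duodenum, all under the floor. The summed signal of the hepatocyte markers was 716539 in liver and 18942.6 in duodenum, of which Cps1 alone gave 16674. The summed signal of the enterocyte markers was 24029.2 in liver and 305312 in duodenum, and the larger liver signals among them were those of Apoa4 (14973) and Fabp2 (5209).

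Secretory lineages of the duodenal epithelium were separated from liver by unlike margins. The median log2 ratio was -6.14 for goblet, -5.27 for Paneth and -1.47 for enteroendocrine markers. All 10 goblet cell markers were higher in duodenum. The mucus-binding protein gene Fcgbp was at least 174-fold higher, the trefoil peptide gene Tff3 165-fold and the granule lectin gene Zg16 155-fold, while the smallest goblet differences were those of the transcription factor gene Spdef (2.86-fold), Ccl6 (10.1-fold) and the gel-forming mucin gene Muc2 (29.1-fold). Of 6 Paneth cell markers with a ratio, 5 were higher in duodenum, among them the lectin gene Itln1 (at least 107-fold), the ribonuclease gene Ang4 (82.98-fold) and the lysozyme gene Lyz1 (39.99-fold), with the phospholipase gene Pla2g2a at 37.2-fold, the matrilysin gene Mmp7 at 15.1-fold and Nupr1, the sixth, at at least 1.60-fold. Enteroendocrine markers were higher in duodenum in 11 of 14 cases. The highest were Reg4 (at least 19.2-fold), the granin gene Chgb (at least 14.3-fold) and the incretin gene Gip (at least 13.9-fold). The hormone genes Pyy and Ghrl gave ratios of -0.25 and -0.91, and Tac1 gave 425 in liver and 216 in duodenum.

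Crypt markers were higher in duodenum for 6 of 8 genes, led by the stem cell-zone gene Olfm4 (at least 71.2-fold), the cotransporter gene Slc12a2 (6.63-fold) and Smoc2 (4.64-fold). The exceptions were the transcription factor gene Ascl2, which is dim on this array (198 in duodenum), and the stem cell receptor gene Lgr5 with 811 in liver and 601 in duodenum; Cdca7 was 2.25-fold higher in duodenum. Tuft cell markers did not separate the arrays: Pou2f3 was 2.65-fold higher in liver, Sh2d6 at least 2.12-fold higher in duodenum, and Alox5ap, Trpm5 and Dclk1 lay between -0.26 and 0.88.

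Cells beneath the epithelium also differed. Smooth muscle markers were higher in duodenum for 9 of 12 genes, from at least 3.04-fold for Smtn to 18.3-fold for the tropomyosin gene Tpm2, at least 13.6-fold for Tagln and at least 8.44-fold for the enteric actin gene Actg2, and the other 3 were Des (0.13), Cnn1 (-0.47 or lower) and Synm (-0.89). Of 8 enteric neuron and glia markers with a ratio, the neuropeptide gene Vip (at least 7.21-fold) and Elavl4 (at least 3.08-fold) were called for duodenum, S100b reached -0.85 or lower, and Sox10, Stmn2 and Gfap lay between -0.29 and 0.37. B and plasma cell markers were higher in duodenum for 9 of 10 genes: the immunoglobulin joining chain gene Jchain was 91.6-fold higher, the immunoglobulin heavy chain gene Igha 28.2-fold and Pou2af1 at least 6.08-fold, and Cd79b and Ms4a1 were at -0.94 and -1.31. The count includes Pigr (-1.33), which encodes the immunoglobulin transporter of epithelial cells and gave 14584 of the list's summed liver signal of 17249. Of 10 T cell and intraepithelial lymphocyte markers 8 were higher there, led by the granzyme gene Gzma (at least 39.4-fold), the chemokine gene Ccl5 (at least 16.4-fold) and Cd7 (at least 7.17-fold). On its brightest probe set Cd8a gave 562 in liver and 563 in duodenum, while further probe sets gave 288 in liver and 536 in duodenum, and 24.5 in liver and 421 in duodenum. Cd2 reached -0.61 or lower and Cd3d -1.74 or lower.

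Among further cell types found in liver, only the Kupffer cell and macrophage list was mostly higher in liver. Of 12 Kupffer cell and macrophage markers, 9 were higher in liver, led by Cd5l (at least 39.7-fold), the lectin gene Clec4f (at least 18.8-fold) and the complement receptor gene Vsig4 (6.67-fold), while Cd68, C1qa and C1qb lay within 2-fold on their brightest probe sets. Of 11 endothelial markers, 3 were higher in liver: the sinusoidal lectin gene Clec4g (15.9-fold), Oit3 (at least 3.98-fold) and Tek (2.76-fold). Plvap, Cdh5 and Lyve1 gave -0.87, -0.58 and 0.05. Fibroblast and stellate cell markers went both ways. The matrix genes Reln (4.50-fold) and Dcn (2.03-fold) were higher in liver, the collagen gene Col3a1 (5.81-fold), Fbln1 (4.07-fold), Pdgfra (3.45-fold), Col1a1 (2.64-fold) and Pdgfrb (2.31-fold) in duodenum. Bile duct markers were lower in liver than in the duodenum for 5 of 6 genes. Among them were Krt19 (34.5 against 10643), Cftr (65.5 against 2314) and Epcam (1106 against 4890.1), with Krt7 and Cldn4 at -2.12 or lower and -1.17. A second probe set of Epcam gave 37.2 in liver, under the floor, and 21674 in duodenum, at least 168-fold. The exception was Onecut1 at 3.07 or higher, which is also among the listed transcription factors of liver and foregut endoderm. In this comparison the bile duct list therefore does not single out bile duct cells. Erythrocyte markers gave 1 call among 3, Alas2 at 2.59-fold higher in liver, with Slc4a1 at 0.57 or higher and Hba-a1 at -0.10. Mast cell protease genes were split, with Cma1 3.05-fold higher in liver, Mcpt2 and Mcpt1 4.86-fold and at least 3.18-fold higher in duodenum, and Fcer1a, Cpa3 and Kit between -0.83 and -0.60.

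Markers of exocrine pancreas, of stomach and of Brunner glands bear on what the duodenal sample held. Brunner glands lie in the duodenum itself, and their list does not separate them from stomach. Of 15 exocrine pancreas markers with a probe set, 7 were above the floor in wild-type liver and 7 in wild-type duodenum, and their summed signal was 6606 in liver and 6650.8 in duodenum. The colipase gene Clps (at least 23.04-fold higher in duodenum) and Ctrc (2.07-fold) were called for duodenum and the elastase genes Cela1 (2.66-fold) and Cela2a (at least 2.20-fold) and Rnase1 (at least 2.05-fold) for liver, while Prss3 gave -0.33 or lower. The defining enzyme genes Cpa1, Cpb1 and Ctrb1 were under the floor in both wild-type samples. For Brunner gland and stomach, 4 of 9 markers were above the floor in duodenum. Their summed signal was 5373.5 in liver and 3813.8 in duodenum, Atp4a and Gkn2 were at least 2.67-fold and at least 2.15-fold higher in liver at low signal, Tff1 gave 0.65, and Tff2, Atp4b and Gkn3 gave -0.80 or lower, -0.22 and -0.01.

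**Figure D2:**
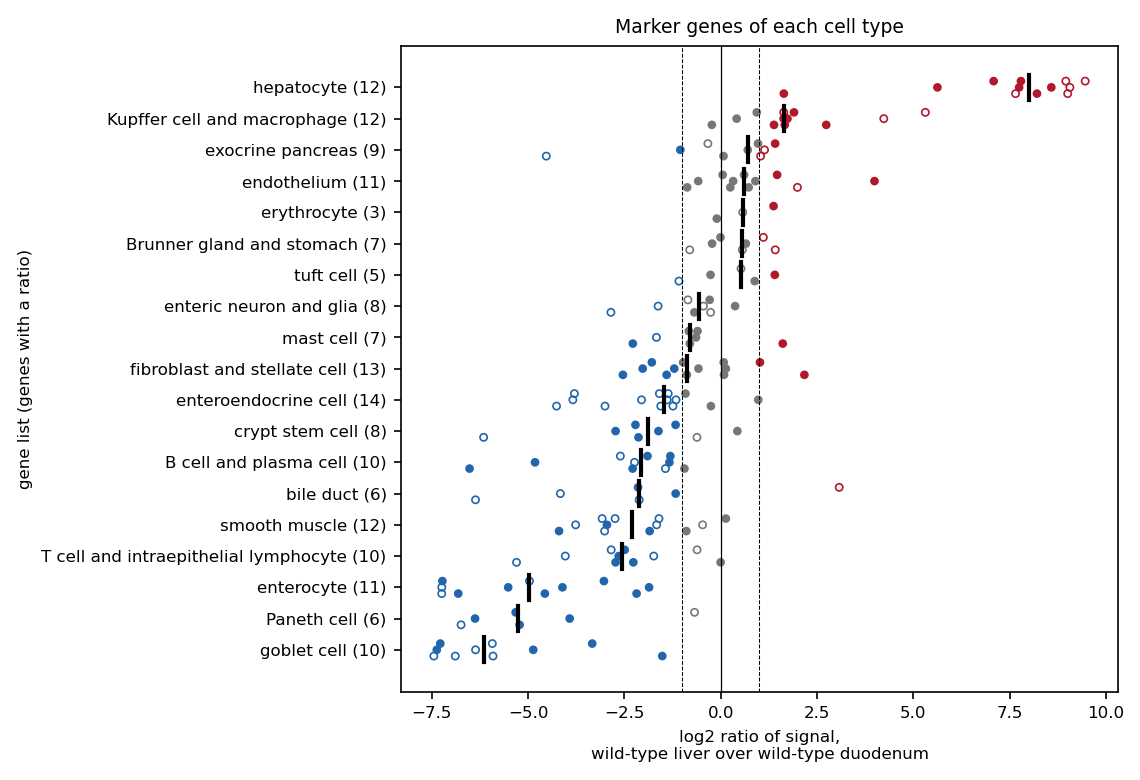
Log2 ratio of signal, wild-type liver over wild-type duodenum, for the marker genes of 19 cell types, 1 point per gene; open points have 1 signal under the floor and are limits, black bars are medians and dashed lines mark 2-fold. Hepatocyte and Kupffer cell markers lie to the right, goblet, Paneth and enterocyte markers to the left.

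The largest differences on the liver side are given first for genes under the floor in duodenum, then for genes measured on both arrays. Among genes under the floor in duodenum, the largest limits were those of the fibrinogen chain genes Fgb (at least 703-fold), Fgg (at least 534-fold) and Fga (at least 514-fold), the fetuin gene Ahsg (at least 497-fold), the glycine methyltransferase gene Gnmt (at least 457-fold), the carboxylesterase gene Ces1c (at least 390.3-fold), the protease inhibitor gene Pzp (at least 385-fold), Apoa5 (at least 363-fold), the betaine methyltransferase gene Bhmt (at least 359-fold) and the hydroxysteroid dehydrogenase gene Akr1c6 (at least 353-fold). Of the genes measured in both tissues, the transthyretin gene Ttr led with 72616 in liver and 164 in duodenum, 442-fold. The apolipoprotein gene Apoc1 gave 56659.5 in liver and 146 in duodenum, 389-fold. The albumin gene Alb gave 82739 in liver and 216 in duodenum, 383-fold. Duodenal signals of these genes were just above the floor. The next 12 were Car3 (332-fold), the antithrombin gene Serpinc1 (296-fold), Apoa2 (275-fold), Serpina1c (262-fold), the regucalcin gene Rgn (257-fold), Serpina1b (254-fold), the arginase gene Arg1 (248-fold), Cyp2e1 (221-fold), the lipogenic regulator gene Thrsp (218-fold), Ambp (216-fold), the hemopexin gene Hpx (214-fold) and the cortisone-activating reductase gene Hsd11b1 (212-fold). Serpina1b and Serpina1c are near-identical antitrypsin copies, so their probe sets can share signal.

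On the duodenal side, genes measured on both arrays are given first. The proline-rich acidic protein gene Prap1, which encodes a secreted lipid-binding protein of the gut, gave 137 in liver and 79522 in duodenum, 582-fold. The membrane mucin gene Muc3 gave 138 in liver and 23918 in duodenum, 174-fold. Tff3 gave 222 in liver and 36662 in duodenum, 165-fold. Liver signals of these 3 genes lay between 137 and 222. The alpha-defensin gene Defa39 followed at 158-fold, then Zg16 (155-fold), the sodium-glucose cotransporter gene Slc5a1 (149-fold), the galectin gene Lgals2 (143-fold), Calml4 (137-fold), the adenosine deaminase gene Ada (123-fold), the intestinal alkaline phosphatase gene Alpi (112-fold), Clec2h (111-fold), Tm4sf5 (109.5-fold), 2210407C18Rik (105-fold), the glycosyltransferase gene B4galnt2 (97.5-fold) and Jchain (91.6-fold). Among genes under the floor in liver, the largest limits were those of the lectin gene Reg1 (at least 393-fold), the retinol-binding protein gene Rbp2 (at least 310.5-fold), the uroguanylin gene Guca2b (at least 262-fold), the trypsin inhibitor gene Spink1 (at least 234-fold), the differentiation keratin gene Krt20 (at least 176-fold), Fcgbp, the alcohol dehydrogenase gene Adh6a (at least 174-fold), the chloride channel accessory gene Clca4b (at least 153-fold), Lct and Vil1. Alpha-defensins form a cluster of near-identical copies, so the signal of Defa39 may include others.

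The start regions of genes at both ends were read for motifs of endoderm transcription factors. Sequences are RefSeq promoter windows of build GRCm38.p6, from 250 bases before to 50 bases after the annotated start of transcription, available for 11941 of the 14919 genes. The windows shown are the 150 bases before the start, 5' to 3' on the gene's strand, and were chosen because the gene was among the 100 highest or lowest ratios and its window holds the motif; capitals mark the motif match. The first set holds the motif of CEBP factors, TTGCNNAA on either strand, before 4 liver genes. Fgb lies at chr3:83049864-83050013 (minus strand), Ahsg at chr16:22891865-22892014 (plus strand), Alb at chr5:90460720-90460869 (plus strand) and the coagulation factor gene F9 at chrX:59999314-59999463 (plus strand).
Fgb: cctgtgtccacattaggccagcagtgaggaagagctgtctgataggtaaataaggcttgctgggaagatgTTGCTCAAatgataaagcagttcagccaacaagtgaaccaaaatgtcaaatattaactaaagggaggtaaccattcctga
Ahsg: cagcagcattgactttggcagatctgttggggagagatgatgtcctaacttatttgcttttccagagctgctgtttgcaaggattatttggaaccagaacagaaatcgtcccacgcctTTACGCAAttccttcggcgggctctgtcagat
Alb: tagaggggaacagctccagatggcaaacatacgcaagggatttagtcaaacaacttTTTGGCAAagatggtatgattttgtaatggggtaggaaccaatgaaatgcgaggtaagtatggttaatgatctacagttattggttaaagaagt
F9: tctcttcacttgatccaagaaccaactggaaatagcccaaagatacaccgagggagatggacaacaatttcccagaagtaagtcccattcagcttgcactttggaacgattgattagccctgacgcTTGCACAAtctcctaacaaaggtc
The first base of the match lies 80, 32, 94 and 24 bases before the start. Among the duodenal genes, 3 windows are shown for the HNF4 motif, CAAAGTCC or CAAAGGTCA on either strand. They are Rbp2 at chr9:98490387-98490536 (plus strand), which holds 2 matches, Alpi at chr1:87101607-87101756 (minus strand) and Treh at chr9:44673083-44673232 (plus strand).
Rbp2: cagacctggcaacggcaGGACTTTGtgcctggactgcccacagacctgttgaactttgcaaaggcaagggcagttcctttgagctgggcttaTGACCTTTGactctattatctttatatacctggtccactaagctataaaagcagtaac
Alpi: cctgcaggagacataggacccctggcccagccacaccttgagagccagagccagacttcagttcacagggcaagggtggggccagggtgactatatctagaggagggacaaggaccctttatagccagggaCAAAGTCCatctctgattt
Treh: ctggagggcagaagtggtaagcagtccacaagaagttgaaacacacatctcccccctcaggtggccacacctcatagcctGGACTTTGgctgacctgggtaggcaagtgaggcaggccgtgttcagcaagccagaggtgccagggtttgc
Each of these genes had a ratio of at least 45.7-fold in its direction.

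Over the full windows, the HNF4 motif was found in 3 of the 100 genes with the highest ratios, in 11 of the 100 with the lowest, in 1.98% of the windows of all tested genes and in 1.89% of all 27025 windows. The CEBP motif TTGCNNAA was found in 26, in 10, in 8.89% and in 10.8%, and its palindrome TTGCGCAA in neither set of 100. The GATA motif AGATAA was found in 19, in 13, in 7.59% and in 11.4%, the CDX motifs TTTATG and TTTATTG in 23, in 16, in 10.2% and in 16.2%, and the TATA box TATAAA in 26, in 24, in 8.99% and in 14.2%. All motifs were searched on both strands, and every match of the palindrome is also a match of TTGCNNAA. Base composition moved with the sets: the median GC content was 48.7% for the liver genes, 54.3% for the duodenal genes, 59.3% over tested genes and 52.7% over all windows. Among 3476 tested genes with a GC content in the middle range of the liver set, the shares were 3.16% for HNF4, 14.3% for CEBP, 14.2% for GATA, 18.01% for CDX and 16.2% for TATA. A match is a run of letters and not a measured binding site, and a window without a match says nothing of the factor.

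Plasma carrier proteins, which hepatocytes release into blood, had the highest median of the 21 function lists, with 26 of 27 genes higher in liver and a median log2 ratio of 7.24. Behind Ahsg, Ttr and Alb came the haptoglobin gene Hp (at least 294-fold), Vtn (209-fold), the retinol carrier gene Rbp4 (197-fold) and the growth factor gene Igf1 (197-fold). The iron hormone gene Hamp gave 49667 in liver and 329.5 in duodenum, 151-fold. The growth factor binding protein gene Igfbp1 (at least 7.69-fold) and the thyroxine carrier gene Serpina7 (at least 3.55-fold) were at the lower end. The exception was Selenop, which encodes the selenium carrier: it gave 69055 in liver and 67258 in duodenum, a ratio of 0.04.

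All 20 coagulation and fibrinolysis genes were higher in liver, with a median of 6.28. The prothrombin gene F2 gave 23017 in liver and 467 in duodenum, 49.3-fold. The plasminogen gene Plg gave 46294 in liver and 229.5 in duodenum, 202-fold. Their duodenal signals were low but above the floor, whereas F9, F10, F12 and Proc were under it there. The smallest ratios were those of F11 (at least 14.7-fold), Proz (8.43-fold) and Pros1 (2.49-fold), the protein S gene.

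Complement genes were higher in liver in 16 of 19 cases. Terminal pathway genes led, with C8g at at least 273-fold and C9 at at least 132-fold, followed by the regulator gene C4bp (at least 115-fold) and the serum lectin gene Mbl2 (32.4-fold). The genes that were not called were C1qa (0.94), C1qb (-0.23) and the properdin gene Cfp (0.68), each by its brightest probe set. The other probe sets of C1qb gave 1617 in liver and 548 in duodenum, and 1638 in liver and 728 in duodenum, both over 2-fold higher in liver. A second probe set of Cfp gave 765 in liver and 25.4 in duodenum, so these calls rest on the probe set chosen. The neighbouring subunit gene C1qc was 3.12-fold higher in liver.

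Apolipoprotein genes split. Of 18 genes of lipoprotein structure and assembly, 9 were higher in liver, 3 in duodenum and 6 in neither. Apoc1, Apoa5 and Apoc4 (at least 334-fold) had the highest ratios, and Apoe gave 87975 in liver and 1410 in duodenum, 62.4-fold. The duodenal side consisted of the chylomicron proteins Apoc2 (10474 in liver and 57116 in duodenum, 5.45-fold) and Apoa4 (14973 in liver and 67984 in duodenum, 4.54-fold) and of Mttp (6108 in liver and 25873 in duodenum, 4.24-fold), the transfer protein that loads lipid onto apolipoprotein B. Apob itself gave 10786 in liver and 8002 in duodenum, Apoa1 76173 and 89996, and Apoc3 57460.2 and 30259. These structural genes of both lipoprotein-secreting organs were bright on both arrays. A second probe set of Apob gave 7592 in liver and 2968 in duodenum, 2.56-fold.

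Of 42 cytochrome P450 genes in the list, 26 were higher in liver and 8 in duodenum, against 37 and 9 of 67 for the whole family. Family 2 genes, whose products oxidise drugs and small lipophilic molecules, stood highest in liver: Cyp2a12 (at least 232-fold), Cyp2e1 (67174 in liver and 303 in duodenum, 221-fold) and Cyp2d10 (at least 194-fold), and the caffeine-demethylating enzyme gene Cyp1a2 was at least 135-fold higher. The 8 on the duodenal side were Cyp2c65 (at least 83.6-fold), Cyp4f16 (8.11-fold), Cyp2s1 (7.54-fold), Cyp4b1 (5.90-fold), Cyp3a13 (5.57-fold), Cyp2c55 (4.90-fold), Cyp2b10 (4.58-fold) and Cyp2j6 (3.65-fold). Subfamily 3A did not separate the organs as a block. Cyp3a11, the main drug-metabolising member in mice, gave 56096 in liver and 30942 in duodenum, Cyp3a25 26414 and 13706, and Cyp3a44 8419 and 69.5. Cyp2c and Cyp2d genes lie in clusters of similar sequence, and their probe sets can share signal.

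Conjugating enzymes showed a mix within each family. Among 36 glutathione, sulfo- and glucuronosyltransferase genes, 19 were higher in liver and 7 in duodenum. Ugt3a2 (at least 128-fold), the bile acid sulfotransferase gene Sult2a8 (82.7-fold) and Ugt2b1 (79.5-fold) led in liver. The microsomal transferase gene Mgst2 (at least 63.7-fold), the cholesterol sulfotransferase gene Sult2b1 (at least 19.8-fold), Mgst3 (8.64-fold), Ugt2b38 (8.41-fold), Sult1b1 (7.43-fold), Gstm3 (2.70-fold) and Gsto1 (2.59-fold) formed the duodenal side. Mgst1 was 4.06-fold higher in liver, so the 3 microsomal genes did not share a direction. Carboxylesterases, which cleave ester drugs and lipids, gave 7 calls for liver and 4 for duodenum among 13 genes: Ces1c, Ces1d (32.03-fold) and Ces1g (11.2-fold) led in liver, and Ces2b (at least 5.90-fold) and Ces2e (3.51-fold) in duodenum.

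Amino acid breakdown and urea synthesis were liver functions in 28 of 33 genes, with a median of 4.33. Methionine and one-carbon enzymes led: Gnmt, Bhmt and the liver methionine adenosyltransferase gene Mat1a (at least 293-fold). Tyrosine catabolism followed with Tat (at least 201-fold), Hgd (at least 142-fold), Hpd (85.6-fold) and Fah (44.8-fold). Within the urea cycle the ratios were uneven. Arg1, which releases urea, gave 45048 in liver and 182 in duodenum, 248-fold. Cps1, which fixes ammonia, gave 51895 in liver and 16674 in duodenum, 3.11-fold. Otc, the next enzyme, gave 25670.3 in liver and 7878 in duodenum, 3.26-fold. Cps1 and Otc were thus bright in duodenum as well, while Arg1 was close to the floor there. The argininosuccinate lyase gene Asl was 20.6-fold higher in liver, the ornithine carrier gene Slc25a15 gave 0.33 and the cofactor synthase gene Nags 0.06. Ass1 was represented by a dim probe set (584 and 447). The genes on the duodenal side were the mitochondrial arginase gene Arg2 (128 in liver and 12685 in duodenum, at least 98.1-fold) and the proline and ornithine synthesis gene Aldh18a1 (232 in liver and 1739.7 in duodenum, 7.50-fold).

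Carbohydrate genes went both ways, also within a pathway. Of 22 genes, 10 were higher in liver and 4 in duodenum. The glycogen genes Pygl (at least 71.8-fold), Gys2 (at least 35.01-fold) and Ppp1r3b (at least 29.4-fold) had the highest ratios. The gluconeogenic gene Fbp1 gave 54460.5 in liver and 3564 in duodenum, 15.3-fold. Pck1, the cytosolic entry enzyme of glucose production, gave 26465 in liver and 3546 in duodenum, 7.46-fold. G6pc, which releases free glucose, gave 6408 in liver and 881 in duodenum, 7.27-fold. All 3 were also well above the floor in duodenum. The duodenal side held glycolytic genes, the muscle-type pyruvate kinase gene Pkm (288 in liver and 8681 in duodenum, 30.1-fold), the phosphofructokinase gene Pfkp (at least 14.3-fold) and Aldoa (3.15-fold), together with the second fructose bisphosphatase gene Fbp2 (61.6 in liver and 5525 in duodenum, at least 42.7-fold). The fructokinase gene Khk gave 7667 in liver and 6393 in duodenum and the liver pyruvate kinase gene Pklr 2067 and 1911.

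Bile acid genes were higher in liver in 24 of 29 cases. The uptake carrier genes Slc10a1 (34648 in liver and 32.2 in duodenum, at least 268-fold) and Slco1b2 (at least 266-fold), the conjugation ligase gene Slc27a5 (132-fold), the rate-limiting enzyme gene Cyp7a1 (11711 in liver and 240.1 in duodenum, 48.8-fold) and the canalicular export pump gene Abcb11 (9394 in liver and 179.6 in duodenum, 52.3-fold) marked successive steps. The 3 genes higher in duodenum were both subunits of the basolateral bile acid exporter, Slc51a (194 in liver and 2978 in duodenum, 15.4-fold) and Slc51b (226 in liver and 1206 in duodenum, 5.34-fold), and the flippase gene Atp8b1 (5.27-fold). The ileal genes Slc10a2, Fabp6 and Fgf15 were under the floor on both arrays, and Abcc2 gave 0.17.

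Genes of cholesterol synthesis, absorption and sensing were higher in liver in 19 of 27 cases, with a median of 1.73. The desaturase gene Sc5d (12749.6 in liver and 975 in duodenum, 13.1-fold), the sterol sensor gene Scap (at least 12.4-fold) and the efflux pump gene Abca1 (9.92-fold) led, and Hmgcs1, the cytosolic synthase at the start of the pathway, gave 30535 in liver and 9173 in duodenum, 3.33-fold. The ratio of Scap rests on a duodenal signal of 109, under the floor. In the transgenic pair Scap gave 1469 in liver and 1225 in duodenum, 1.20-fold. The only gene called for duodenum was Npc1l1, the uptake protein for dietary cholesterol, with 167 in liver and 4742 in duodenum, 28.4-fold. The sterol exporter genes Abcg5 and Abcg8 gave -0.78 and -0.03, and Srebf2 -0.68.

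Fatty acid oxidation genes were moderately higher in liver. Of 29 genes, 18 were called for liver and 3 for duodenum, with a median of 1.39. The thioesterase gene Acot3 (at least 44.97-fold), the thiolase gene Acaa1b (26.5-fold) and Cyp4a14 (at least 12.98-fold) stood apart, while core mitochondrial enzymes such as Acadm (3.92-fold), Acadvl (4.13-fold) and the carnitine transferase gene Cpt1a (2.67-fold) were moderately higher in liver. The genes on the duodenal side were Oxct1, which allows a tissue to burn ketone bodies (132 in liver and 1643 in duodenum, 12.5-fold), the kinase gene Pdk4 (6.59-fold) and Acsl5 (2.25-fold).

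Triglyceride re-synthesis from absorbed fat had the opposite balance, with 12 of 27 genes higher in duodenum and 2 in liver. Mogat2, of the monoacylglycerol pathway, gave 252 in liver and 10707 in duodenum, 42.5-fold, and Dgat1, which completes the triglyceride, gave 1100.5 in liver and 17358 in duodenum, 15.8-fold. Fabp2, the intestinal fatty acid binding protein gene, gave 5209 in liver and 89808 in duodenum, 17.2-fold. By contrast Fabp1, its paralog, gave 82578 in liver and 84395 in duodenum. The genes on the liver side belonged to the glycerol phosphate route and lipid droplets, Gpam (8652 in liver and 842 in duodenum, 10.3-fold) and Plin2 (4.92-fold), and Acsl3 gave 0.98.

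**Figure D3:**
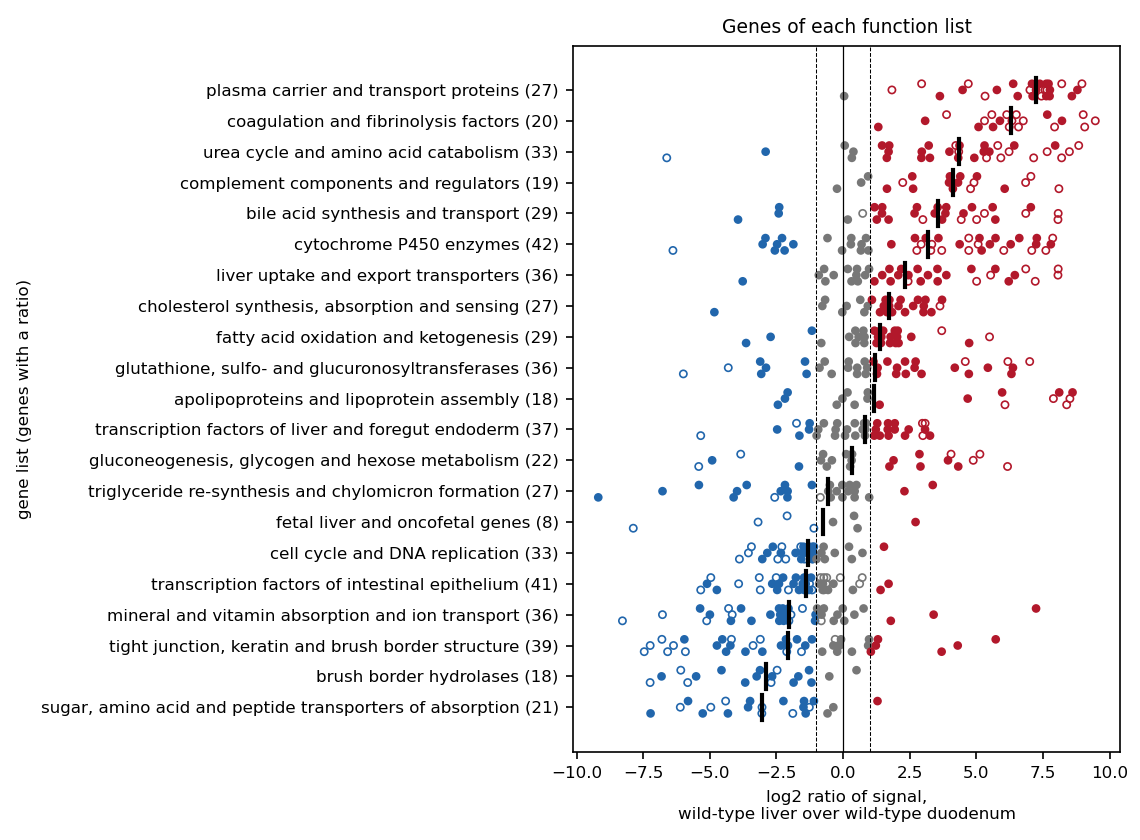
Log2 ratio of signal, wild-type liver over wild-type duodenum, for the genes of 21 function lists, 1 point per gene; open points have 1 signal under the floor and are limits, black bars are medians, dashed lines mark 2-fold, red and blue mark genes past it. Medians run from 7.24 for plasma carrier proteins to -3.04 for absorption transporters, and most lists hold genes of both colours.

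Brush border hydrolases, the membrane enzymes that finish digestion, were higher in duodenum for 16 of 18 genes and in liver for none. Lct and Alpi led, and the peptidase gene Mep1b was at least 68.1-fold higher. The trehalase gene Treh gave 149.9 in liver and 6853 in duodenum, 45.7-fold. The aminopeptidase gene Anpep gave 717 in liver and 16959.8 in duodenum, 23.6-fold. Mgam, which splits starch products, gave 1841 in liver and 23482 in duodenum, 12.8-fold. The liver signal of Treh was near the floor, and those of Anpep and Mgam were well above it. The smallest duodenal call was the lipase gene Plb1 (2.28-fold); Xpnpep2 gave -0.52 and the tissue-nonspecific phosphatase gene Alpl 0.50.

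Absorption transporters for sugars, amino acids and peptides were higher in duodenum for 18 of 21 genes, with a median of -3.04. Slc5a1, which takes up glucose with sodium, gave 201 in liver and 30013 in duodenum, 149-fold. The imino acid carrier gene Slc6a20a gave 31.8 in liver and 8921 in duodenum, at least 68.99-fold. Slc7a9, the light chain of the cystine carrier, gave 165 in liver and 9304 in duodenum, 56.4-fold. The heavy chain gene Slc3a1 was 2.81-fold higher in duodenum, the neutral amino acid carrier gene Slc6a19 20-fold and the peptide carrier gene Slc15a1 at least 31.2-fold. The sole gene on the liver side was Slc2a2, the low-affinity glucose carrier of hepatocytes and of the basolateral enterocyte membrane, with 20158 in liver and 8250.2 in duodenum, 2.44-fold. Slc16a10 and Slc5a9 gave -0.37 and -0.59.

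Mineral, vitamin and ion handling genes were higher in duodenum for 23 of 36 genes. Rbp2, which binds absorbed retinol, gave 25.2 in liver and 40147 in duodenum, at least 310.5-fold. S100g, the calcium-buffering calbindin, gave 23.1 in liver and 14186 in duodenum, at least 109.7-fold. The anion exchanger gene Slc26a6 was 41.2-fold higher. Iron uptake genes ran from the oxidase gene Heph (53.7 in liver and 4491 in duodenum, at least 34.7-fold) through Slc11a2 (5.26-fold) and Cybrd1 (at least 3.88-fold) to the exporter gene Slc40a1, which gave 11676 in liver and 13545 in duodenum. The 3 genes on the liver side were Hamp, the sensor gene Tfr2 (10.5-fold) and the lipoprotein receptor gene Scarb1 (3.45-fold).

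Liver transporters were higher in liver in 24 of 36 cases. Beside the bile acid carriers, the amino acid carrier genes Slc38a4 (at least 148-fold) and Slc38a3 (74.1-fold) and the glycerol channel gene Aqp9 (16553 in liver and 191 in duodenum, 86.8-fold) were prominent. The only duodenal call was the drug efflux pump gene Abcb1a (529 in liver and 7210.1 in duodenum, 13.6-fold); the carnitine carrier gene Slc22a5 and the citrate carrier gene Slc13a5 gave -0.91 and -0.71. Over whole families, 64 of 313 solute carrier genes were higher in liver and 77 in duodenum, with a family median of -0.22 that became 0.10 on the spiked-control scale. Among 42 ABC transporter genes, 16 were higher in liver and 4 in duodenum. Beside both families, the shares over all genes tested were 13.6% for liver and 18.5% for duodenum.

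Transcription factor genes gave medians of 0.82 for the list of liver and foregut endoderm and -1.39 for that of intestinal epithelium. Of 37 factors of liver and foregut endoderm, 16 were higher in liver and 6 in duodenum. The 16 were Cebpa (10958 in liver and 1145 in duodenum, 9.57-fold), Onecut1 (at least 8.43-fold), the estrogen receptor gene Esr1 (8.41-fold), Nr0b2 (at least 7.94-fold), Prox1 (at least 7.85-fold), Foxa2 (5.49-fold), Nfia (5.00-fold), Ppara (3.83-fold), Rxra (3.82-fold), the bile acid receptor gene Nr1h4 (3.26-fold), Nr5a2 (3.21-fold), Nfib (3.18-fold), Cebpb (2.59-fold), Hlf (2.43-fold), Dbp (2.34-fold) and Stat5b (2.24-fold). Dbp and Hlf follow the daily clock, and the sources used here do not give the time of tissue collection. The 6 on the duodenal side were Hnf4g (at least 40.6-fold), Gata6 (5.56-fold), Tox3 (at least 3.36-fold), Tbx3 (3.12-fold), Gata4 (355 in liver and 861 in duodenum, 2.43-fold) and the xenobiotic receptor gene Nr1i2 (322 in liver and 770.4 in duodenum, 2.39-fold). Hnf4a, a master regulator of both epithelia, gave 9619 in liver and 8688 in duodenum, and Creb3l3 gave 13508 and 12855.

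Of 41 factors of intestinal epithelium, 25 were higher in duodenum and 2 in liver, Nr1h4 and the tuft cell factor gene Pou2f3. Hnf4g gave 68 in liver and 5245 in duodenum, at least 40.6-fold. Klf5, a crypt regulator, gave 204 in liver and 7008 in duodenum, 34.4-fold. The vitamin D receptor gene Vdr gave 96.2 in liver and 4034 in duodenum, at least 31.2-fold. None of these but Klf5 was above the floor in liver. Klf4 was 26.7-fold higher, the retinoid-responsive factor gene Isx at least 15.1-fold, the intestinal identity gene Cdx2 at least 8.85-fold, its paralog Cdx1 at least 4.15-fold, and the duodenal and pancreatic factor gene Pdx1 at least 8.62-fold. Elf3 (6.32-fold), Myb (at least 5.70-fold), Gata6, Esrra (5.30-fold), Ovol1 (4.76-fold), Grhl2 (3.63-fold), Maf (3.41-fold), Klf3 (3.15-fold), Spdef, Prdm1 (2.76-fold), Neurod1 (2.75-fold), Creb3l1 (2.65-fold), Gata5 (2.63-fold), Gata4, Ehf (at least 2.40-fold), Atoh1 (2.30-fold) and Nkx2-2 (at least 2.24-fold) completed the duodenal side. Several of these regulators of rare secretory cells were dim, with Atoh1 at 662 and Neurod1 at 468 in duodenum, and Pax4 gave 0.72 or higher. Over 37 nuclear receptors, 9 were higher in each organ, and the family median of -0.30 became 0.05 on the spiked-control scale. The shares over all genes tested were 13.6% for liver and 18.5% for duodenum.

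Junction and cytoskeleton genes were mostly higher in duodenum. Of 39 genes, 24 were higher in duodenum and 6 in liver, against 18.5% and 13.6% of all genes tested. Krt20, Vil1 and the cadherin gene Cdh17 (60 in liver and 14396 in duodenum, at least 111-fold) led in duodenum. Krt19 gave 34.5 in liver and 10643 in duodenum, at least 82.3-fold and Krt8 1906 in liver and 24172 in duodenum, 12.7-fold, whereas its partner Krt18, the other keratin of hepatocytes, gave 5573 in liver and 2844 in duodenum, 1.96-fold. Of 19 claudin genes, which encode tight junction proteins, 7 were higher in duodenum and 3 in liver, with Cldn7 at at least 95.9-fold, Cldn15 at 26.6-fold and Cldn4 at 2.25-fold on the duodenal side. The liver side held the gap junction genes Gjb1 (13814 in liver and 262 in duodenum, 52.8-fold) and Gjb2 (15401 in liver and 783 in duodenum, 19.7-fold), the cadherin gene Cdh2 (12.9-fold), Krt23 (2.47-fold), Cldn14 (2.34-fold) and Cldn2 (2.05-fold).

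Cell cycle genes were higher in duodenum for 24 of 33 genes with a ratio. The proliferation antigen gene Mki67 gave 36.9 in liver and 1518 in duodenum, at least 11.7-fold. Birc5, which acts in cytokinesis, gave 28.2 in liver and 1919 in duodenum, at least 14.8-fold. Cdk1, the mitotic kinase gene, gave 42.1 in liver and 1403 in duodenum, at least 10.9-fold. All 3 were under the floor in liver. The 1 gene on the liver side was Ccnd1 (3844 in liver and 1330 in duodenum, 2.89-fold), with Tk1 and Cdk2 at 0.72 and 0.33. Among 8 genes of fetal liver and oncofetal programmes, Spink1, Afp (54.6 in liver and 1181 in duodenum, at least 9.13-fold), Igf2 (at least 4.29-fold) and Gpc3 (at least 2.14-fold) were higher in duodenum and Peg3 (6.57-fold) in liver. Mest and Dlk1 gave 0.54 and 0.41.

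Defence and housekeeping families followed. Their counts are to be read against the shares over all genes tested, 13.6% called for liver and 18.5% for duodenum. All 6 regenerating lectin genes were higher in duodenum, from 2.26-fold for Reg2 to at least 69.3-fold for the bactericidal lectin gene Reg3b and at least 393-fold for Reg1. Of 25 chemokine genes, 9 were higher in duodenum and 4 in liver: the lymphocyte-homing gene Ccl25 gave 443 in liver and 20919.7 in duodenum, 47.2-fold, and Cxcl12 gave 8035 in liver and 273 in duodenum, 29.4-fold. Of 33 serpin genes, 16 were higher in liver and 6 in duodenum, the latter led by the intracellular inhibitor genes Serpinb1a (22.8-fold) and Serpinb6a (19.9-fold). Of 46 ribosomal protein genes, 13 were higher in duodenum and none in liver, with a median of -0.68 that was -0.30 on the spiked-control scale, where 5 were higher in duodenum. Of 37 proteasome subunits, 11 were higher in liver, among them Psmd12 (3.67-fold), and 2 in duodenum, Psmd13 (2.06-fold) and the immunoproteasome gene Psmb8 (2.50-fold). On the spiked-control scale these counts were 22 and 0. None of 34 complex I subunits passed 2-fold, and their median of 0.11 became -0.12 after quantile normalization. Over these 3 families of genes that all cells use, the log2 ratios lay between -2.32 and 1.88.

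Genes related by family or function were set side by side, the first chosen for liver. The second was another form, not always an intestinal one, such as the muscle-type Pkm. Of 42 pairs, 29 had a ratio for both members, and in 15 of them the first gene was at least 2-fold higher in liver and the second at least 2-fold higher in duodenum. These were Rbp4 and Rbp2, Arg1 and Arg2, Fbp1 and Fbp2, Slc27a5 and Slc27a4 (12.3-fold higher in duodenum), Slc7a2 (61.9-fold higher in liver) and Slc7a9, Cyp2c29 (34.6-fold higher in liver) and Cyp2c65, Abcb11 and Abcb1a, Cdh2 and Cdh17, Gjb1 and Gja1 (2.68-fold higher in duodenum), Cldn14 and Cldn15, Gys2 and Gys1 (at least 3.06-fold higher in duodenum), Slc2a2 and the fructose carrier gene Slc2a5 (4.73-fold higher in duodenum), Tfr2 and Tfrc (5.14-fold higher in duodenum), Ces1d and Ces2e, and Mbl1 (19.8-fold higher in liver) and Itln1. The pairs were picked from general knowledge of the genes, with earlier results of these data known, so the count of 15 is a description only.

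In 9 pairs only the second gene was called, for duodenum: Dgat1 but not Dgat2 (0.50), Mogat2 but not Mogat1 (-0.85 or lower), Fabp2 but not Fabp1 (-0.03), Pkm but not Pklr (0.11), Hnf4g but not Hnf4a (0.15), Slc13a2 (27-fold higher in duodenum) but not Slc13a5, Alpi but not Alpl, Cyp3a13 but not Cyp3a11 (0.86), and Krt20 but not Krt18 (0.97). In 2 pairs only the first gene was called, for liver: Pygl but not Pygb (-0.94) and Ugt2b1 but not Ugt2b34 (-0.43). Gata4 and Gata5 were both called for duodenum, Aqp9 and Aqp8 (7.51-fold) both for liver, and Foxa3 and Foxa1 lay within 2-fold at 0.83 and 0.73. The remaining pairs were not compared.

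**Figure D4:**
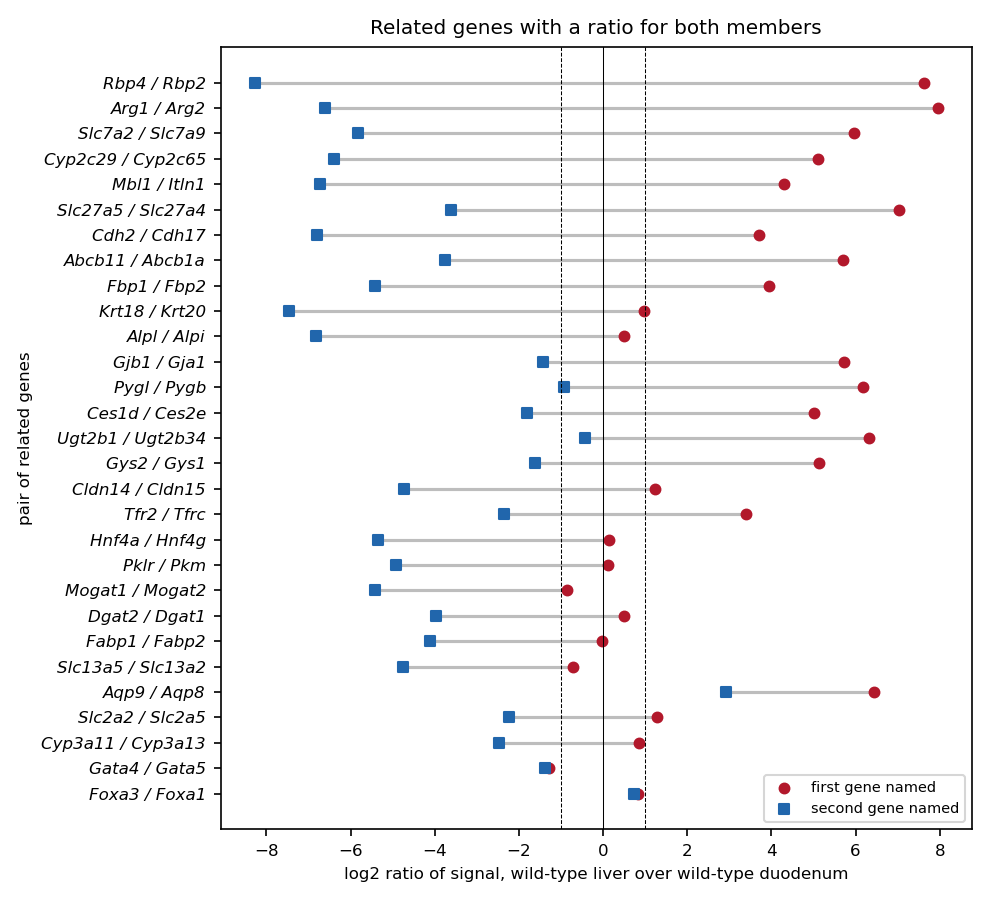
Log2 ratio of signal, wild-type liver over wild-type duodenum, for both members of the 29 pairs with a ratio for each; red circles are the first gene named and blue squares the second, joined by a grey line, and dashed lines mark 2-fold. In 15 pairs the circle lies right of the right dashed line and the square left of the left one.

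The transgenic pair of arrays gives the same tissue contrast and shares no array with the wild-type pair, but it differs by genotype and is not a replicate. Of 14421 genes tested there, 2298 (15.9%) were higher in liver and 2523 (17.5%) in duodenum at 2-fold. Of the genes called at 8-fold in wild type and also tested there, 419 of 429 for liver (97.7%) and 358 of 363 for duodenum (98.6%) passed 2-fold the same way and 0 the opposite way. At 2-fold in wild type, 1249 of 2004 (62.3%) and 1488 of 2622 (56.8%) did, with 31 and 57 opposite. The Pearson correlation of the ratios was 0.82 across 13663 genes, as a description. Fgb gave 62305 in transgenic liver and 5.70 in transgenic duodenum, and Lct gave 295 and 37506. Among the genes at the top of the ratios, Ttr stood apart with 2849 in transgenic against 164 in wild-type duodenum. Of the genes named here and called in wild type, 16 had the opposite sign in the transgenic pair: Ccnd1, Cela1, Cela2a, Cldn2, Cma1, Col3a1, Dbp, Gkn2, Klf3, Ms4a1, Nkx2-2, Pdgfra, Pdgfrb, Peg3, Rnase1 and Sh2d6.

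Markers of exocrine pancreas, and of Brunner gland and stomach, differed between the genotypes. The exocrine pancreas markers summed to 133842 in transgenic duodenum against 6650.8 in wild-type duodenum, and Brunner gland and stomach markers to 159208 against 3813.8. Their part in the genes called there was not tested. The Gapdh 3'/5' ratio was 3.07 in transgenic duodenum and 0.719 in transgenic liver, and the spiked controls had a median ratio, liver over duodenum, of -1.18 in the transgenic and -0.38 in the wild-type pair. The part of these differences in the genes called at 2-fold in 1 pair only was not tested.

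**Figure D5:**
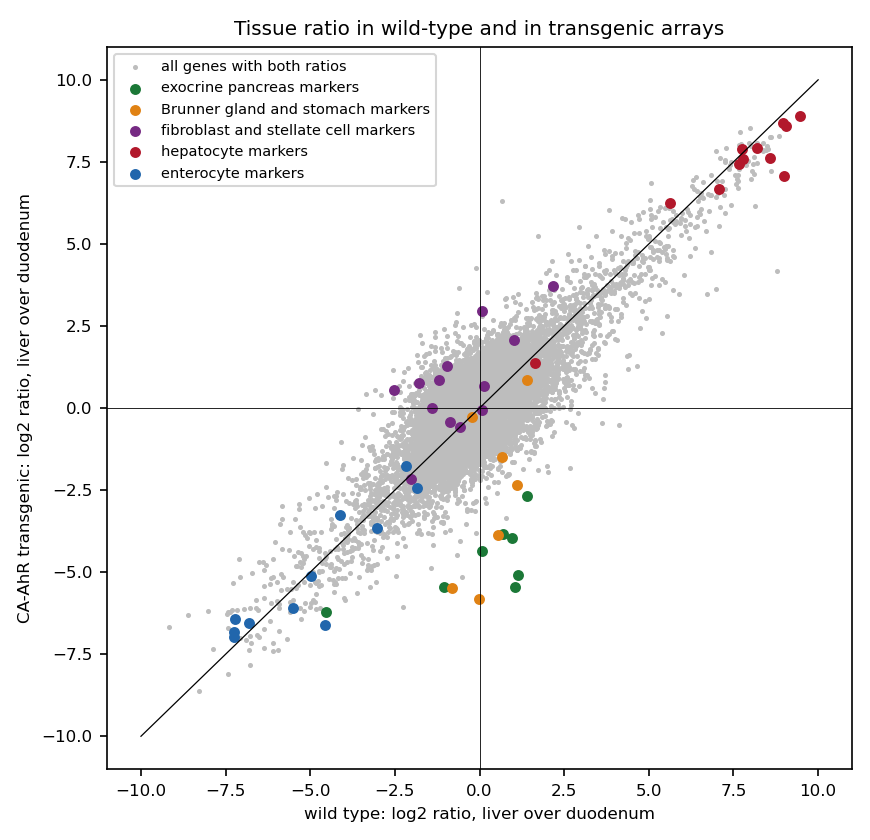
Log2 ratio of signal, liver over duodenum, in the wild-type pair (horizontal axis) and in the CA-AhR transgenic pair (vertical axis), 1 point per gene with both ratios; the solid line marks equal ratios and colours mark 5 marker lists. Hepatocyte and enterocyte markers lie near the line at either end, and exocrine pancreas markers lie below it.

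Where a gene had a second probe set above the floor, that probe set can be read as a technical check of the first on the same RNA. For genes called at 8-fold it pointed the same way in 150 of 154 cases for liver (97.4%) and 138 of 146 for duodenum (94.5%). For genes called at 2-fold it pointed the same way in 748 of 928 (80.6%) and 1028 of 1179 (87.2%). It repeated the 2-fold call in only 470 (50.6%) and 597 (50.6%) of these cases, and was opposite at 2-fold in 28 and 16. Some genes have further probe sets above the floor that differ from the one used, and examples follow. Sign opposed the main probe set in a dim second probe set of Clec4g (45.1 in liver and 189.8 in duodenum), Klf5 (149 in liver and 77.5 in duodenum) and Mgst1 (35 in liver and 137 in duodenum). It also did so for 2 further probe sets of Nfib (601 in liver and 758 in duodenum, and 303 in liver and 381 in duodenum), and for 1 each of Psmb8 (179.7 in liver and 89.7 in duodenum), Psmd13 (481 in liver and 291 in duodenum) and Tbx3 (291 in liver and 274 in duodenum). Genes not called by the brightest probe set passed 2-fold in another for Des (95.8 in liver and 568 in duodenum) and Lyve1 (140.5 in liver and 296 in duodenum), as also for C1qb, Cfp and Apob. Same sign but a smaller ratio was seen in second probe sets of B4galnt2 (165 in liver and 1769 in duodenum), Pdx1 (164 in liver and 297 in duodenum), Grhl2 (505 in liver and 689 in duodenum), Klf3 (1579.7 in liver and 1789 in duodenum), Tpm2 (345 in liver and 445 in duodenum), Sc5d (973 in liver and 616 in duodenum), Car3 (322 in liver and 106 in duodenum), Ccl25 (200.4 in liver and 436 in duodenum), Slco1b2 (789 in liver and 367 in duodenum), Slc38a3 (766 in liver and 379 in duodenum) and Cxcl12 (3452 in liver and 1024 in duodenum). For these genes the size of the ratio rests on the brightest probe set.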

How the data were processed

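The authors deposited linear MAS5 signal intensities, 1 value per probe set, with the tool named per the submitters' processing notes, from 1 biotin-labelled cRNA per array. The version of MAS5 and its detection calls are not stated in the sources used. On every array the mean without the lowest and highest 2% of the 45101 probe sets was 500.0, so ratios are relative to a global scaling.

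From these values the log2 ratio of liver over duodenum was computed with no further normalization (Python 3.11.15, pandas 2.3.3). Of the probe sets, 34958 had 1 gene symbol in the platform annotation, 932 had several and were not used for a gene, and 9211 were not listed. Each of the 18194 genes was read by the probe set that was brightest in mean log2 over all 4 arrays. The floor of 129.3 is the mean over arrays of the 40th percentile of probe sets without the 64 controls. The 3275 genes under it on both wild-type arrays were left out.

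Calls were ratios of at least 2-fold, and 8-fold for the stronger class. Groups hold 1 array each, so no test was run, and precision is limited by the number of arrays. The calculation was tested on simulated data. Promoter windows are RefSeq sequences of GRCm38.p6, the first listed per symbol; 4163 of 27025 symbols have several. Genes were named by rule: the 15 highest and 15 lowest ratios among genes measured on both arrays, the 10 largest limits each way, in each list the members with the 3 highest and 3 lowest ratios and called members that go against most of their list, called transcription factors, both members of every pair compared, and a few reference genes; other genes were added for their role after their values were seen. The lists, pairs and members were chosen with earlier results of these data known. Alternatives were the floor at the 20th or 60th percentile, quantile and loess normalization (span 0.3), scaling on 18 spiked control probe sets, the mean over probe sets, and leaving out probe sets that can detect several transcripts. A few genes of the lists and pairs, and 1 motif, are not reported here.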

Additional observations from a re-analysis of the deposited data

Results flagged for a closer look

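The following genes and lists took opposite directions in the wild-type and the transgenic pair of arrays, each with 1 array per tissue and genotype, so the difference was not tested. Values are log2 ratios of liver over duodenum.

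The median of the exocrine pancreas markers was 0.70 in wild type and -5.44 in the transgenic pair. Among them the elastase genes Cela1 (1.41 and -2.69) and Cela2a (1.14 and -5.10) and the ribonuclease gene Rnase1 (1.03 and -5.44) changed sides. The Brunner gland and stomach markers had medians of 0.56 and -2.12, with the gastrokine gene Gkn2 at 1.11 and -2.33. These went with summed signals in transgenic duodenum of 133842 for pancreas and 159208 for Brunner gland and stomach, against 6650.8 and 3813.8 in wild-type duodenum.

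The fibroblast and stellate cell markers had medians of -0.88 and 0.68, and their summed signal was 31786.2 in transgenic and 12047.4 in wild-type liver. The mast cell chymase gene Cma1 gave 1.61 and -1.36. The B cell gene Ms4a1 gave -1.31 and 1.87.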

How the results depend on the processing

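No paired analysis was possible because each group holds 1 array. Every setting below was planned. The counts of genes at 2-fold and 8-fold stayed within 1.5 times their reported value under all but 3 changes: genes higher in duodenum at 2-fold numbered 1748 on the spiked-control scale and 1766 when the floor was raised to the 60th percentile, and those at 8-fold numbered 586 with the floor at the 20th percentile, which lets limits grow. Several list counts moved by over 1.5 times. The number of genes with a ratio also changed for most of these lists and is given. On the transgenic arrays, fatty acid oxidation genes higher in liver numbered 11 of 29 in place of 18 of 29. Kupffer cell markers higher in liver numbered 5 of 11 in place of 9 of 12. The counts were 3 of 12 in place of 7 of 13 for carboxylesterase genes and 6 of 37 in place of 11 of 37 for proteasome subunits. There too, carbohydrate genes higher in duodenum numbered 9 of 23 in place of 4 of 22 and exocrine pancreas markers 14 of 14 in place of 2 of 9. Brunner gland and stomach markers numbered 6 of 8 in place of 0 of 7 and fibroblast markers 1 of 13 in place of 5 of 13. Serpin genes numbered 3 of 26 in place of 6 of 33 and chemokine genes 5 of 21 in place of 9 of 25. With the higher floor, enteroendocrine genes higher in duodenum numbered 5 of 14 in place of 11 of 14. Claudins numbered 3 of 12 in place of 7 of 19 and collagens 3 of 23 in place of 6 of 34. Without multi-transcript probe sets, smooth muscle markers higher in duodenum numbered 5 of 10 in place of 9 of 12. Bile duct markers higher there numbered 2 of 3 in place of 5 of 6 and serpin genes 2 of 25 in place of 6 of 33. Proteasome subunits higher in liver numbered 6 of 31 in place of 11 of 37. On the spiked-control scale, claudins higher in duodenum numbered 4 of 20 in place of 7 of 19 and nuclear receptors 5 of 36 in place of 9 of 37. The causes were not tested. The Brunner gland and stomach median, not far from 0, became -0.22 without probe sets that can detect several transcripts.

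Of 383 named genes with a ratio, none changed sign from a call under another floor, quantile, loess or spiked-control scaling, or the mean of probe sets. Without multi-transcript probe sets Mgst1 became -0.086 and Psmd13 0.73. On the transgenic arrays the log2 ratio was -0.033 for Ccnd1, -2.69 for Cela1, -5.10 for Cela2a, -0.26 for Cldn2, -1.36 for Cma1, 0.56 for Col3a1, -0.11 for Dbp, -2.33 for Gkn2, 0.42 for Klf3, 1.87 for Ms4a1, 0.21 for Nkx2-2, 0.75 for Pdgfra, 0.85 for Pdgfrb, -0.53 for Peg3, -5.44 for Rnase1 and 0.50 for Sh2d6. Limits moved with the floor by construction: 140 of the named genes moved by over 1.5 times with the higher floor and 87 with the lower one. Signal near background limits genes whose fold is given as at least that size.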

Other observations

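Some gene families stand in no comparison above. Over all genes tested, 13.6% were called for liver and 18.5% for duodenum at 2-fold. Of 6 mucin genes with a ratio, 3 were higher in duodenum, Muc3, Muc2 and the membrane mucin gene Muc13 (908 in liver and 17287 in duodenum, 19.04-fold), and none in liver. Of 34 collagen genes, 4 were higher in liver and 6 in duodenum, near the shares over all genes. The basement membrane collagen gene Col18a1 gave 6890.2 in liver and 485 in duodenum, 14.2-fold. Of 18 Hox cluster genes, none was called for liver and 2 for duodenum, Hoxc5 and Hoxd13, which were dim at 334 and 393 in duodenum.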
